A study of Mus musculus with 6 samples.

Results

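Heat shock proteins and chaperones were followed in the mouse cochlear nucleus, where auditory nerve fibres end in the brainstem, after silencing of 1 ear. The members were the genes of the HSP70, HSP90, small heat shock protein, J protein, chaperonin and BAG families and the adaptors Stip1 and St13, found by gene symbol among probe sets that name 1 gene. A gene was kept where its brightest probe set had a mean log2 value above 4 over the arrays, which left 68 of the 77 such genes on the array and 68 of 8754 genes in all. Those just inside this limit were Dnajb8 (mean 4.08) and Hspb2 (4.19), and those just outside were Dnajb13 (3.47), Hspb3 (3.40) and Hspa12b (3.40). The 9 genes left out (Cct6b, Dnajb13, Dnajb3, Dnajb7, Dnajc5b, Hspa12b, Hspa1l, Hspb3 and Hspb7) had means from 2.23 to 3.47.

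All mice were at postnatal day 21 and had received tetrodotoxin, which blocks voltage-gated sodium channels and so stops action potentials, into 1 cochlea from an osmotic pump for 24 h. Total RNA of the nucleus on the infused side (ipsilateral, 3 pools) was compared with that of the opposite side (contralateral, 3 pools). Each pool held tissue of 10 to 12 mice and was hybridised to 1 Affymetrix array, and the values are log2 expression values per probe set. The contralateral nuclei came from the infused mice and none came from untreated mice, so a difference may lie on either side.

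Chaperones bind unfolded or partly folded proteins and keep them from aggregating. HSP70 proteins do so in cycles of ATP hydrolysis that J proteins start and that BAG and HSP110 proteins help to end, HSP90 finishes the folding of kinases and receptors, and chaperonins enclose a protein in a barrel. Part of the genes are made constantly, and part are induced by the transcription factor HSF1 under heat or proteotoxic stress. Chaperones of the endoplasmic reticulum answer to a separate stress response. In neurons, HSC70 (Hspa8) with the J proteins auxilin and cysteine string protein also serves clathrin uncoating and the vesicle cycle at synapses.

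Promoter sequences that hold known stress response elements are shown here because the members are described by them below. The heat shock element that HSF1 binds was searched as GAANNTTC (2 units) and GAANNTTCNNGAA (3 units), and the element of the endoplasmic reticulum stress response as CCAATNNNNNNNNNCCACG, on both strands of the 250 bases before each annotated start (RefSeq, GRCm38.p6). The 3-unit form contains the 2-unit form. GAANNTTC reads the same on both strands, so the other order of 2 units, TTCNNGAA, was not searched by itself. A gene without a match may thus still hold an element. A 2-unit match lay in 10 of the 55 members with a promoter entry: Cct2, Dnaja1, Dnaja4, Dnajb6, Dnajc27, Hspa1a, Hspa1b, Hspb1, Hspd1 and Hspe1. Cct2, Dnaja4, Dnajb6 and Dnajc27 are not on the list of stress-inducible genes used below, and of that list Hspa4l, Hsph1, Hspb8, Dnajb1, Bag3 and Stip1 had no match. The 13 members without a promoter entry, Hspa8 and Hsp90aa1 of that list among them, were not searched. A gene can have several starts, so shares are given over windows. The 2-unit form lay in 11 of 72 member windows (15.3%, against 6.69% of all promoter windows), the 3-unit form in 4 (5.56%, against 0.466%) and the endoplasmic reticulum element in 3 (4.17%, against 0.113%). Windows are not separate sites: for both heat shock forms, windows of Dnajb6 hold the same match, and those of Hspd1 and Hspe1 share the same element. The promoters below run 5′ to 3′ toward the start, each ending at the base before it, and capitals mark the fixed letters of a match.
Hspa1a, chr17:34972157-34972406, minus strand: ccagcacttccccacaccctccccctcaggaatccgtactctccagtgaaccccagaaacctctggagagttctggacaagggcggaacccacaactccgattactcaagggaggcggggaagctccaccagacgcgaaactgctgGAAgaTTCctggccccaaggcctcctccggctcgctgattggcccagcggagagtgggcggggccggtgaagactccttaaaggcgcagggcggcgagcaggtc
Hspa1b, chr17:34959239-34959488, minus strand: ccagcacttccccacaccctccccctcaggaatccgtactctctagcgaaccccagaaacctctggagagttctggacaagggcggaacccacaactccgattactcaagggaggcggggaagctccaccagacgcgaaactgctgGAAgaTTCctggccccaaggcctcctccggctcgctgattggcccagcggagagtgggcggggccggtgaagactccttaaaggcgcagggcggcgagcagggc
Hspb1, chr5:135887669-135887918, plus strand: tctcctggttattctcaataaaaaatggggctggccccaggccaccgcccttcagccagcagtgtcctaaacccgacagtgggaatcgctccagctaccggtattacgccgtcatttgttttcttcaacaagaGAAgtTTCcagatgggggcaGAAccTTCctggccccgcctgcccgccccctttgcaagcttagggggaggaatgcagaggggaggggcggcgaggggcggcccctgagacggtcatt
Hspa5, chr2:34771840-34772089, plus strand: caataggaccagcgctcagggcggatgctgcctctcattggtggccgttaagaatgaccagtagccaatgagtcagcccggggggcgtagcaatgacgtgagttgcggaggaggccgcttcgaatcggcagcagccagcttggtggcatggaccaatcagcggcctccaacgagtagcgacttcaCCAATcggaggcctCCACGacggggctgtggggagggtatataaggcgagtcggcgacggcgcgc
Hsp90b1, chr10:86705445-86705694, minus strand: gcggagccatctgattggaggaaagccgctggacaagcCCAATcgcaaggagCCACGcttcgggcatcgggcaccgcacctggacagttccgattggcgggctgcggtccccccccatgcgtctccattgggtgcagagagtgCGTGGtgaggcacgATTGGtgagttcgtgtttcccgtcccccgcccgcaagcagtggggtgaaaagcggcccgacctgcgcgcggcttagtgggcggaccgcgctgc

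The promoters of Hspa1a and Hspa1b were identical at 247 of 250 positions. The mitochondrial pair Hspe1 and Hspd1 shared 1 element of 4 units, printed on the strand of Hspe1 with its unit letters in capitals.
Hspe1 and Hspd1, chr1:55088059-55088076, plus strand: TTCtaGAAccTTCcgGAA
It lay 72 to 89 bases before the start of Hspe1 and 127 to 144 bases before the start of Hspd1. Dnajb6 was the other member with a 3-unit match. The endoplasmic reticulum element was found before Hspa5, Hsp90b1 and Dnajc3, and not before the other measured genes of that compartment, Dnajb9, Dnajb11, Dnajc1 and Dnajc10.

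As a class the chaperone genes differed little between the silenced side and the other side. No member had a Benjamini-Hochberg adjusted p under 0.05 (limma over 15298 probe sets, 0% of which passed), and the adjusted p of each member was 1.00. At an unadjusted limma p under 0.05 there was 1 of 68 members (1.47%), Dnajc28, against 2.43% of all genes tested. With the replicate number as a block there were 2 (2.94%), Dnajc28 and Bag2, against 3.91% of genes and 3.72% of probe sets, and again 0 after adjustment (limma). The member differences ran from -0.32 (Bag2) to 0.37 (Dnajc28) with a median of -0.02 on the log2 scale, where all genes had a median of 0.00 and ran from -2.29 to 1.39. In bulk tissue, fewer cells of a type and less RNA per cell cannot be told apart.

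The intervals bound how large a change could have been missed. The limma 95% interval of the difference lay within 0.5 log2 units of 0 for 56 of 68 members (82.4%; 72.9% of all genes) and within 1 for 68 of 68. For the 41 members with a mean above 8 it lay within 0.5 for 39. The SD within a side had a median of 0.13 over the members and 0.15 over all genes. For comparison, the activity marker Fos measured 9.43 ± 0.54 contralaterally and 7.59 ± 0.17 ipsilaterally (SD, n = 3 each). Its adjusted limma p was 0.9998, so Fos did not pass the adjusted threshold either.

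**Figure D1:**
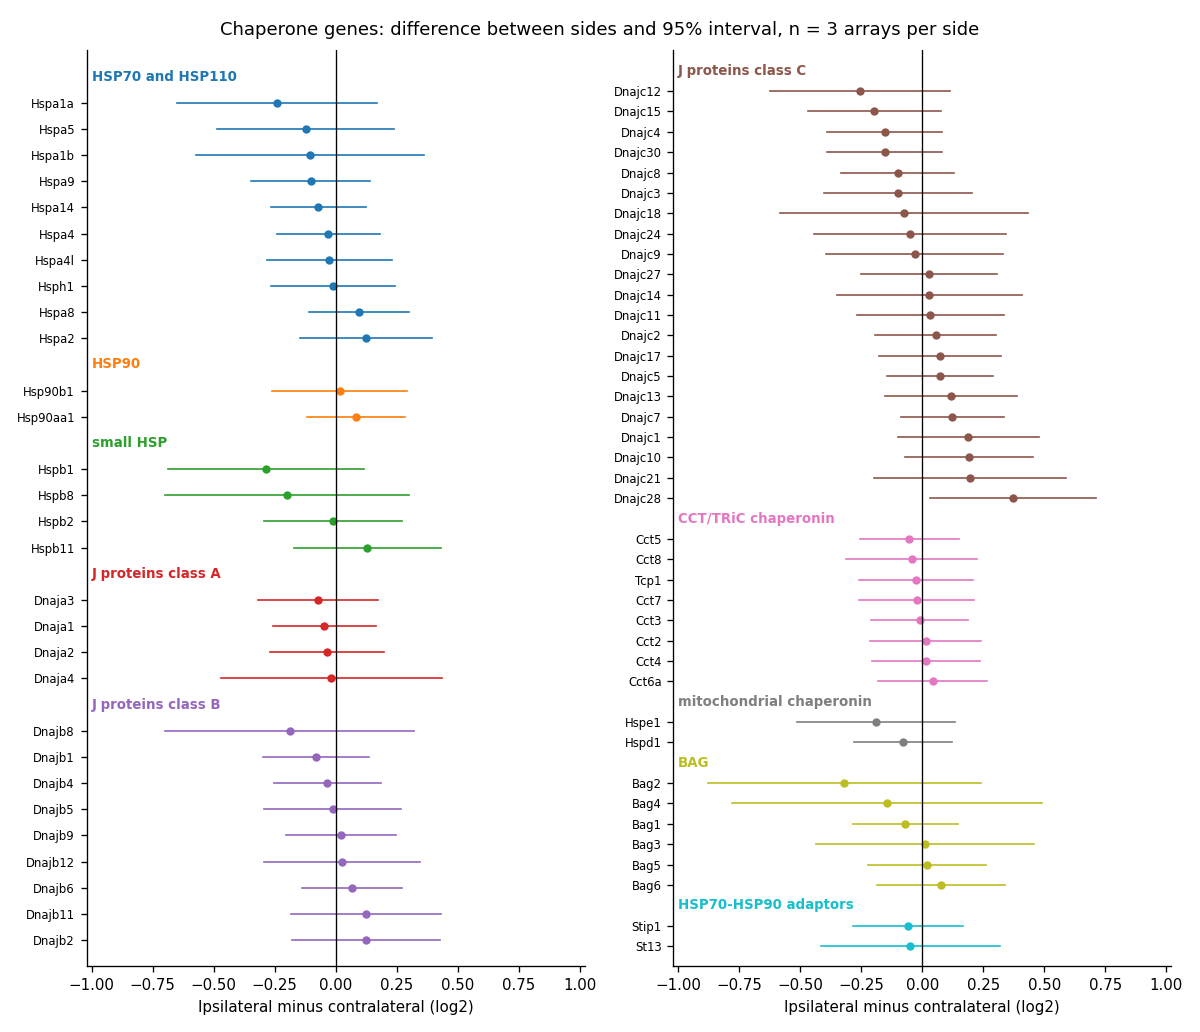
Ipsilateral minus contralateral difference (log2, horizontal axis) of each of the 68 chaperone genes, grouped by family, with points for the limma estimate and lines for its 95% interval (3 arrays per side). All intervals but that of Dnajc28 (0.03 to 0.71) include 0, and the widest belong to dim genes such as Bag2 (-0.88 to 0.24).

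More members were lower than higher ipsilaterally, by small amounts. Of the 68 members 40 were lower on the infused side (58.8%, against 50.9% of all genes), with 38 (55.9%), 39 (57.4%) and 34 (50.0%) lower in replicates 1, 2 and 3, against 57.4%, 44.9% and 51.8% of all genes. Of the 41 members with a mean above 8, 26 were lower (63.4%, against 49.6% of genes that bright), and with the probe sets of each gene averaged 44 of 68 were. In 3 of 3 replicates 12 members were lower (17.6%, against 13.8% of all genes) and 7 were higher (10.3%, against 11.1%). The 12 lower ones were Hspa14, Hspb1, Hspb8, Dnaja1, Dnaja3, Dnajb1, Dnajb8, Dnajc8, Dnajc12, Dnajc15, Dnajc30 and Bag2, and the 7 higher ones Hspa8, Hsp90aa1, Dnajc7, Dnajc10, Dnajc13, Dnajc17 and Dnajc28. The sides did not overlap for 1 lower member, Hspa14 (1.47%, against 3.88%), and 2 higher ones, Hspa8 and Hsp90aa1 (2.94%, against 2.74%). Several of these names were taken after their values were seen.

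The genes with several probe sets leaned further to one side than the brightest probe sets alone. Of 39 such members, 19 had all their probe sets lower on the infused side (48.7%, against 24.9% of 3487 genes) and 5 had all of them higher (12.8%, against 23.1%). The differences given by the probe sets of a member lay a median of 0.11 log2 units apart, which measures their disagreement and not their size. Of the members' 130 probe sets 4 (3.08%) had an unadjusted limma p under 0.05, against 2.38% of all probe sets. Besides Dnajc28 these were probe sets of Hspb1, Hspa4 and Dnaja4 that were not the brightest of their gene. All 3 were lower ipsilaterally, their sides did not overlap, and their adjusted limma p was 1.00. For each probe set named from here on the adjusted limma p was 1.00, so differences are given with their SE or limma 95% interval.

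**Figure D2:**
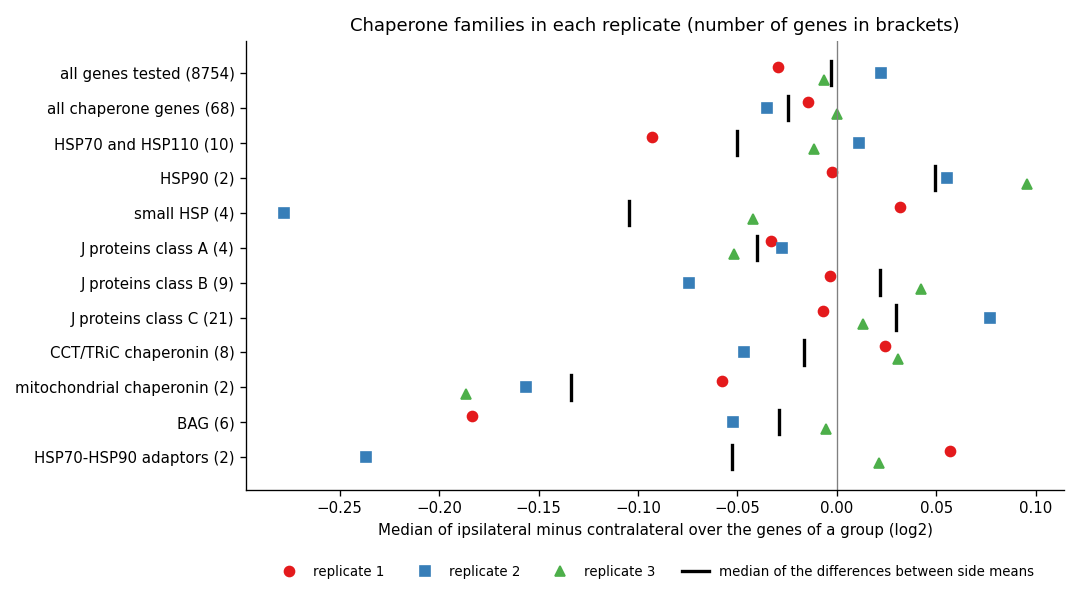
Median ipsilateral minus contralateral difference (log2, horizontal axis) over the genes of each chaperone family in replicates 1 to 3 (symbols) and for the side means (black bars), with all genes and all members above. The class A J proteins, the mitochondrial chaperonin and the BAG genes lie below 0 in 3 of 3 replicates, and the small HSP symbols are spread most, from -0.28 to 0.03.

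The HSP70 and HSP110 genes encode the ATP-driven folding chaperones and their nucleotide exchange partners. Of the 10 measured (12 on the array), 8 were lower ipsilaterally, and the median was -0.05. Hspa8, the constitutive HSC70, measured 14.05, 14.09 and 14.08 on contralateral arrays 1 to 3 and 14.13, 14.13 and 14.25 on ipsilateral arrays 1 to 3. Every ipsilateral value was thus above every contralateral one, by a difference of 0.10 (SE 0.09, 95% interval -0.11 to 0.30). Its probe sets of next highest signal gave -0.04 and 0.10 with overlapping sides, and a dim one 0.35. The brightest (1455789_x_at) has a suffix that marks probes able to bind other transcripts.

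The stress-inducible pair Hspa1a and Hspa1b encodes nearly the same HSP70 protein from neighbouring genes, and their probe sets may not tell the transcripts apart. Hspa1a (1452388_at) measured 5.51, 5.22 and 5.47 contralaterally and 4.80, 5.30 and 5.38 ipsilaterally. Hspa1b (1452318_a_at) measured 6.37, 6.38 and 6.47 contralaterally and 5.83, 6.57 and 6.49 ipsilaterally. In both, ipsilateral array 1 was the low one and the other 5 arrays lay close together. The differences were -0.24 (95% interval -0.65 to 0.17) and -0.11 (-0.57 to 0.36). Without ipsilateral replicate 1 they were -0.06 and 0.13. The other probe sets of Hspa1b, dim at means of 4.91 and 5.24, differed by 0.02 and 0.17.

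Hsph1, the HSP110 exchange factor, measured 10.23 ± 0.04 contralaterally and 10.22 ± 0.16 ipsilaterally, and its relatives Hspa4 and Hspa4l each differed by -0.03. A dimmer probe set of Hspa4 (1416147_at) measured 7.66 ± 0.08 and 7.40 ± 0.10, a difference of -0.26 (95% interval -0.49 to -0.02). Hspa2, an HSP70 best known from the testis, differed by 0.12. Hspa14, which works at the ribosome, measured 8.21 ± 0.03 and 8.14 ± 0.02. That difference of -0.07 was the smallest among the 3 members whose sides did not overlap.

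HSP90 completes the maturation of signalling proteins. Hsp90aa1, its inducible cytosolic form, measured 13.41, 13.40 and 13.34 contralaterally and 13.52, 13.42 and 13.46 ipsilaterally. The ipsilateral values were all higher, by 0.08 (SE 0.08, 95% interval -0.12 to 0.28), and its other probe sets gave 0.07 and 0.03. Hsp90b1, the form of the endoplasmic reticulum, measured 11.00 ± 0.12 and 11.01 ± 0.15, while a dimmer probe set gave -0.28 (95% interval -0.71 to 0.15).

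Small heat shock proteins hold unfolding proteins without ATP. Of the 4 measured under an Hspb symbol, 3 were lower with a median of -0.10, which was 0.04 with the choroid plexus marker level as a covariate. Going by symbol takes in Hspb11 and leaves out Cryab, counted with the other pathway genes, which differed by 0.06 (95% interval -0.30 to 0.42). Hspb1 (HSP27) is found in glia, vessels and stressed neurons. Its brightest probe set (1425964_x_at) measured 7.45, 7.91 and 7.53 contralaterally and 7.07, 7.45 and 7.52 ipsilaterally. Its other probe set (1422943_a_at) measured 7.49, 7.89 and 7.61 contralaterally and 7.12, 7.19 and 7.48 ipsilaterally. Both were lower on the infused side in 3 of 3 replicates, and on the latter the sides did not overlap. The differences were -0.29 (SE 0.17, 95% interval -0.69 to 0.12) and -0.40 (SE 0.15, -0.75 to -0.05).

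Hspb8, which acts with BAG3 in selective autophagy, measured 7.39, 7.05 and 6.84 contralaterally and 7.29, 6.64 and 6.76 ipsilaterally. At this probe set, its brightest, the arrays ordered as the choroid plexus markers described below did on each side. The difference there of -0.20 became 0.02 with that marker level as a covariate. Its other probe sets differed by -0.27 and -0.06, and neither kept the marker order contralaterally. The part of choroid plexus tissue in Hspb8 was not tested. Hspb11, a component of ciliary transport, differed by 0.13, and Hspb2, dim at a mean of 4.19, by -0.01.

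J proteins deliver substrates to HSP70 and trigger its ATPase. All 4 class A members were lower ipsilaterally, with differences from -0.07 to -0.02 and a median of -0.04. Dnaja1, the main cytosolic partner of HSC70, measured 11.10, 11.09 and 11.18 contralaterally and 11.02, 11.06 and 11.16 ipsilaterally. Each ipsilateral value was thus the lower of its pair (difference -0.05, SE 0.09). Dnaja3, the mitochondrial member, differed by -0.07 and Dnaja2 by -0.03.

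Dnaja4, singled out after its values were seen, followed the replicate rather than the side at its brightest probe set alone. It measured 7.39, 6.91 and 7.39 contralaterally and 7.43, 6.90 and 7.32 ipsilaterally, so that replicate 2 was low on both sides. A dimmer probe set (1418592_at) measured 6.57 ± 0.03 and 6.28 ± 0.14 with no overlap (difference -0.29, 95% interval -0.53 to -0.05), and another gave -0.17. For 57 of 68 members (83.8%) the means of the 3 replicates spanned more than the difference between the sides, as did those of 84.0% of all genes. A range of 3 means mostly exceeds a difference of 2 means even without a replicate effect. These shares therefore do not show that the replicate outweighed the side.

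Class B J proteins were even, with 4 of 9 lower and a median of 0.02. Dnajb1 (HSP40), the inducible partner of HSP70, measured 8.92 ± 0.09 contralaterally and 8.84 ± 0.04 ipsilaterally, and its dimmer probe set differed by -0.22. Dnajb2, a neuronal member that passes clients to the proteasome, differed by 0.13 in the mean, with 0.42 in replicate 2 and -0.01 and -0.03 in replicates 1 and 3. Dnajb11, a partner of BiP, differed by 0.12. Dnajb8, at a mean of 4.08, was near the minimum and differed by -0.19.

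Class C J proteins are the most diverse, with a J domain joined to domains for single tasks. Of 21 measured, 12 were higher, with a median of 0.03. Dnajc28 measured 5.47, 5.34 and 5.60 contralaterally and 5.57, 5.94 and 6.02 ipsilaterally. Ipsilateral array 1 lay within the contralateral range, so the sides overlapped, and the difference was 0.37 (SE 0.14, 95% interval 0.03 to 0.71, 1.29-fold). Its sides differed by 0.10, 0.60 and 0.42 in replicates 1 to 3, and 1 probe set measured it. With the choroid plexus marker level as a covariate the difference was 0.23.

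Dnajc15, a mitochondrial inner membrane protein, measured 9.09, 9.10 and 9.30 contralaterally and 8.92, 8.86 and 9.13 ipsilaterally. The infused side was lower by similar steps in each replicate, -0.17, -0.25 and -0.17 (difference -0.20, 95% interval -0.47 to 0.08, and -0.41 to 0.01 with the replicate block). Dnajc10, a disulfide reductase of the endoplasmic reticulum, differed by 0.19 at its brightest probe set and by 0.03 at both others. Dnajc5, cysteine string protein, measured 10.32 ± 0.09 and 10.40 ± 0.04, and its other probe sets ranged from -0.16 to 0.05. The other members ran from -0.25 (Dnajc12) to 0.20 (Dnajc21).

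**Figure D3:**
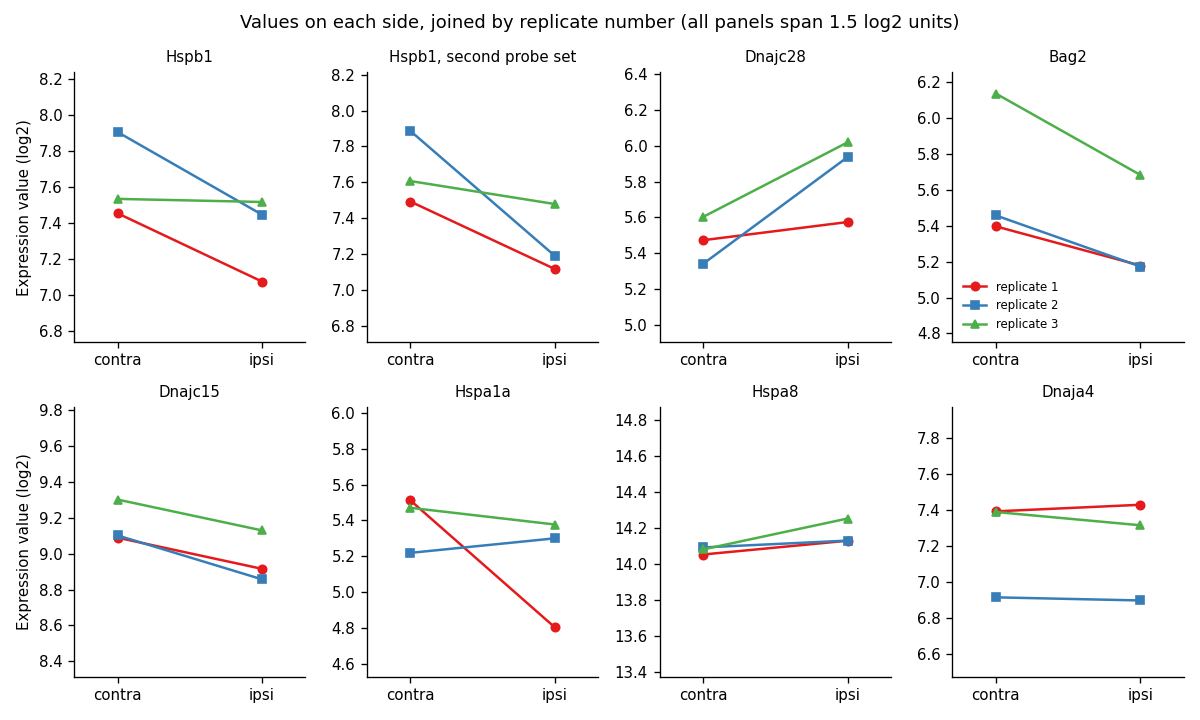
Expression value (log2, vertical axis) on the contralateral and ipsilateral side for 7 chaperone genes, with 2 probe sets of Hspb1, each line joining the arrays of 1 replicate number. Both Hspb1 probe sets, Bag2 and Dnajc15 slope down in 3 of 3 replicates, Dnajc28 slopes up, and the Hspa1a line of replicate 1 is the steep one. The brightest probe set of Dnaja4, shown here, follows the replicate.

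The CCT/TRiC complex, the cytosolic barrel that folds actin and tubulin, had 8 measured subunit genes, 5 lower and 3 higher, with differences from -0.05 (Cct5) to 0.04 (Cct6a). Their SD within a side had a median of 0.08, the lowest of the 10 families. Tcp1, its alpha subunit, measured 10.94 ± 0.04 contralaterally and 10.91 ± 0.12 ipsilaterally, and Cct8 differed by -0.04. The limma 95% interval lay within 0.5 of 0 for 8 of 8 subunits, the widest being that of Cct8 from -0.31 to 0.23.

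The mitochondrial chaperonin Hspd1 (HSP60) and its lid Hspe1 (HSP10), which share the 4-unit element printed above, were both lower on the infused side. Hspd1 measured 10.78, 10.72 and 10.71 contralaterally and 10.62, 10.64 and 10.71 ipsilaterally. Hspe1 measured 10.43, 10.58 and 10.89 contralaterally and 10.47, 10.35 and 10.51 ipsilaterally. Neither was lower in every replicate, and the differences were -0.08 (95% interval -0.28 to 0.12) and -0.19 (-0.51 to 0.13). The other probe set of Hspe1 differed by -0.02. Hspa9, the mitochondrial HSP70, differed by -0.10 at its brightest probe set and by 0.01 and -0.34 at the others. At the brightest probe sets, 5 of the 6 measured genes of the mitochondrial group were lower, with a median of -0.09.

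BAG proteins release substrates from HSP70 and link it to degradation. Bag2, an inhibitor of the ubiquitin ligase CHIP, measured 5.40, 5.46 and 6.14 contralaterally and 5.18, 5.17 and 5.68 ipsilaterally. Replicate 3 was high on both sides and the infused side was the lower one of each pair, so the difference of -0.32 had a 95% interval of -0.88 to 0.24 without and -0.56 to -0.08 with the replicate block. The adjusted limma p with the block was 0.991, and without contralateral replicate 3 the difference was -0.08. Bag3, an HSF1 target, measured 5.97 ± 0.34 and 5.98 ± 0.19 with differences of -0.48 in replicate 1 and 0.56 in replicate 2. Bag1 differed by -0.07 and Bag6 by 0.08. The adaptors Stip1 (HOP), which joins HSP70 to HSP90, and St13 (HIP) differed by -0.06 and -0.05.

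Across families, the 14 genes listed as stress-inducible (HSF1 targets) had a median of -0.07, with 11 lower on the infused side and 0 at an unadjusted limma p under 0.05. The list holds Hspa8, described above as constitutive. The median came mainly from replicate 1, at -0.16, against -0.01 and -0.03 in replicates 2 and 3. Of the 14, 8 had their lowest value on ipsilateral array 1, where 17.5% of all genes had theirs. Without that array the median was -0.01, and the median of the HSP70 and HSP110 genes turned from -0.05 to 0.02. The 10 members with a 2-unit heat shock element had a median of -0.06 with 7 lower, and the 45 with a promoter entry and no match one of -0.02 with 26 lower. Hspa8 and Hsp90aa1, the genes of the 14 whose ipsilateral values were all higher, are in neither count because they have no promoter entry.

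Choroid plexus tissue also differed on these arrays. The mean of 10 choroid plexus markers, of 10 on the array, was 7.98, 7.70 and 7.24 contralaterally and 8.95, 4.99 and 5.11 ipsilaterally, so ipsilateral array 1 was highest in these markers while the stress-inducible genes were lowest. With the marker mean as a covariate the differences of Hspa1a, Hspa1b and Hspb1 were -0.41, -0.34 and -0.42. These 3 were then the members at an unadjusted limma p under 0.05, 4.41% against 2.92% of all genes, and their adjusted limma p was 1.00. The covariate set ipsilateral array 1 apart from the other ipsilateral arrays, and all 3 genes had their lowest value there. Their covariate differences thus rest largely on that array. Without it, Hspa1a differed less, Hspa1b was higher ipsilaterally and Hspb1 stayed lower. Immediate early genes were lowest on the same array as well, at a mean over 7 genes of 6.44 against 6.53 and 6.84 on the other ipsilateral arrays and 6.87 to 7.67 contralaterally. Their part in the pattern was not tested.

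**Figure D4:**
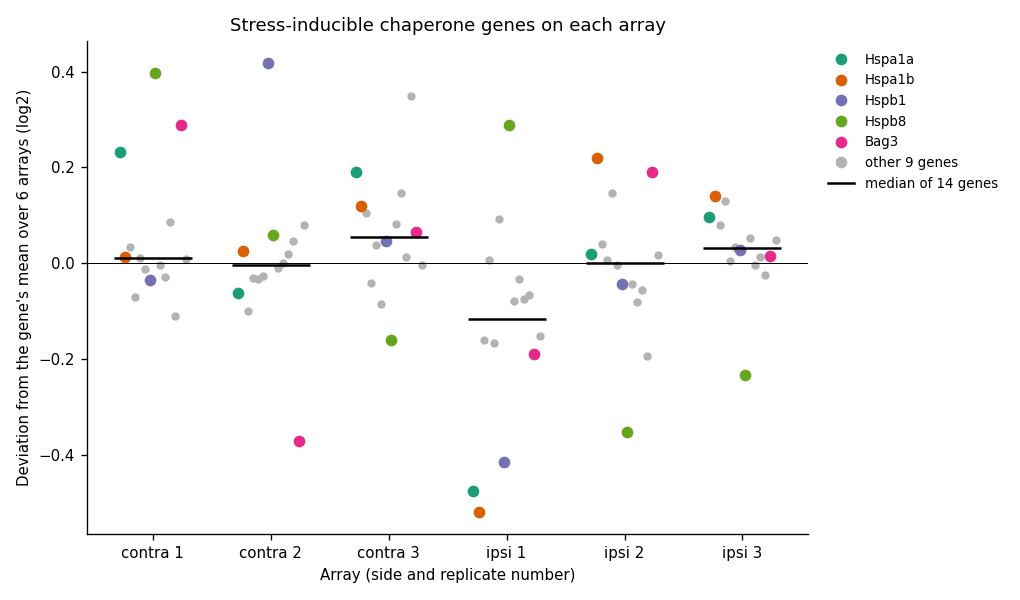
Deviation of each of the 14 stress-inducible chaperone genes from its own mean over the 6 arrays (log2, vertical axis) by array, with 5 genes coloured and black bars for the median. The median on ipsilateral array 1 is -0.12 and on the other arrays between -0.00 and 0.06, and Hspa1a, Hspa1b and Hspb1 are the lowest points on that array.

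Of the chaperones of the endoplasmic reticulum 5 of 7 measured genes were higher ipsilaterally, with a median of 0.02. Hspa5 (BiP), the HSP70 of that compartment, measured 11.15, 11.07 and 11.47 contralaterally and 11.22, 10.87 and 11.24 ipsilaterally. The sides overlapped, with a difference of -0.12 (SE 0.15, 95% interval -0.48 to 0.24) and -0.10 at its other probe set. The 3 members with the endoplasmic reticulum element, Hspa5, Hsp90b1 and Dnajc3, differed by -0.12, 0.02 and -0.10. The 3 measured genes of the synaptic vesicle and clathrin cycle, Hspa8, Dnajc5 and Dnajc13, were all higher at their brightest probe sets, by 0.07 to 0.12, with limma 95% intervals from -0.15 to 0.39 at the widest. The sign depended on the probe set: others ran from -0.04 to 0.35 for Hspa8 and from -0.16 to 0.05 for Dnajc5. In replicate 1 Dnajc5 was lower, by -0.05.

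Of 36 other genes of the chaperone pathway, such as heat shock factors, HSP90 co-chaperones, prefoldin subunits and folding enzymes, 31 were measured. Those not measured were Hsf1, Hsf2, Ptges3, Ppid and Pfdn4, so HSF1 itself was not followed and Hsf4 was the only heat shock factor measured. None passed the adjusted threshold in limma. At an unadjusted limma p under 0.05 there were 0 (2.43% of all genes), and 1 with the replicate block (3.23%, against 3.91%). The mean was lower ipsilaterally for 24 (77.4%, against 50.9% of all genes), and the median was -0.05. The leading one, the lens and brain heat shock factor Hsf4, measured 5.17, 5.31 and 4.58 contralaterally and 5.36, 5.66 and 5.23 ipsilaterally, a difference of 0.39 (95% interval -0.11 to 0.90, and 0.08 to 0.70 with the replicate block). It was higher in 3 of 3 replicates, with overlapping sides. The HSP90 co-chaperone Sugt1 differed by -0.15, the mitochondrial nucleotide exchange factor Grpel2 by -0.14, the mitochondrial HSP90 Trap1 by -0.11 and the ubiquitin ligase CHIP (Stub1) by -0.11.

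The tissue identity and the other cell types bear on all of these values. Markers of the cochlear nucleus and hindbrain were measured for 7 of 9 genes on the array, with means of 7.09 to 7.29 contralaterally and 7.14 to 7.28 ipsilaterally, while Slc6a5 and Hoxb3 did not pass the minimum. Neuron markers averaged 10.26 to 10.49 and 10.24 to 10.61, astrocyte markers 10.18 to 10.35 and 10.36 to 10.36, and oligodendrocyte markers 12.17 to 12.41 and 12.32 to 12.43. Of these lists 0 of 9 oligodendrocyte, 1 of 9 astrocyte and 7 of 14 neuron markers were lower ipsilaterally, with median differences of 0.13, 0.06 and 0.01. Microglia markers averaged 6.98 to 7.18 and 7.14 to 7.29, and endothelial markers 6.43 to 6.56 and 6.32 to 6.57, with 1 of 11 and 7 of 10 lower and median differences of 0.17 and -0.10. The medians of the glial lists were 0.06 to 0.17, and their part in the chaperone values was not tested. Cerebellar granule and Purkinje cell markers, 10 of 10 measured, averaged 9.05 to 9.43 contralaterally and 8.87 to 9.42 ipsilaterally. They were highest in replicate 3 on both sides, and 5 of 10 were lower ipsilaterally, with a median of -0.08. Ependyma markers, 3 of 4 on the array, averaged 5.41 to 5.82 and 5.39 to 6.36, with 0 lower. The part of these 2 lists in the chaperone values was not tested. Of the 7 skeletal muscle markers 5 did not pass the minimum.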

How the data were processed

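The members, gene lists, markers and alternatives were chosen with earlier results of these data known. The deposited values are log2 expression values per probe set that the authors made with GCRMA, per the submitters' processing notes. This method corrects background by probe sequence and normalizes between arrays, so a change common to most genes is removed, and differences of dim genes are uncertain. That they are log2 was inferred from their range, 1.40 to 16.0, with array medians of 5.86 to 5.91. With arrays there is no read depth, and their number, 6, limits the precision: the smallest two-sided p of an exact permutation test with 3 per side is 0.1.

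The sample descriptions gave side and replicate. Names came from the platform annotation: of 22690 probe sets 20393 had 1 symbol, 691 several and 1606 none. After leaving out 64 control probe sets and 7328 with a mean at or below 4, 15298 entered a linear model without a block for the difference of ipsilateral from contralateral arrays (lmFit, then eBayes, in limma 3.58.1 under R 4.3.3), with Benjamini-Hochberg adjustment over all of them. A gene is its brightest probe set. The fit was tested on simulated data. Genes were named by a fixed list of 22 symbols and, in each family, the 3 of smallest p and the one of largest difference. Of the other pathway genes the 5 of smallest p were named, and Cryab because the family went by symbol. Hsp90ab1 and Dnajc6, on that list, were not analysed here.

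The series text compares both sides after infusion of 1 ear, so pools sharing a number were taken to be from the same mice. Deviations from the side means of same-numbered arrays correlated at 0.09, 0.04 and 0.57 across probe sets, and those of other pairs between -0.37 and 0.30. The replicate block was an alternative. Further alternatives were array weights, a robust trended variance, centring on medians, quantile normalization, a minimum mean of 6 or none, an adjusted p under 0.1, averaging the probe sets of each gene, dropping cross-hybridizing probe sets, the choroid plexus covariate, and leaving out each array or pair.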

Additional observations from a re-analysis of the deposited data

How the results depend on the processing

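No chaperone gene passed the adjusted limma threshold under any of the 20 alternatives, and 36 to 44 of 68 were lower on the infused side where 68 were measured, 46 of 77 with no filter, 35 of 60 with a mean above 6 and 35 of 55 without cross-hybridizing probe sets. Of the 784 values of named genes under the alternatives, 760 moved by less than the SD of the gene's replicate differences. Part of this count was fixed in advance. The replicate block, the robust trended variance and the adjusted p under 0.1, among others, cannot move a difference. Over all probe sets the count past the adjusted threshold was 0 to 5 when an array or pair was left out, with 5 choroid plexus genes when ipsilateral replicate 1 was dropped and 2 of them when its contralateral partner was dropped as well. At an unadjusted limma p under 0.05 there were 364 probe sets, 569 with the replicate block and 230 to 524 under the others, and 1 chaperone gene, 2 with the replicate block, 3 with the choroid plexus covariate and 0 to 2 under the others. With the probe sets of each gene averaged, the median was -0.0445 over all members, -0.0360 for HSP90, -0.11 for class A and -0.0236 for class C J proteins. Without cross-hybridizing probe sets it was -0.0223 for class C and -0.0469 for the mitochondrial chaperonin, and with the choroid plexus covariate 0.0734 for the endoplasmic reticulum group and 0.0449 for small HSP. Leaving out 1 array gave medians from -0.0780 to 0.0157 for the HSP70 and HSP110 genes, -0.0777 to -0.00247 for class A, -0.0255 to 0.0473 for class B, -0.187 to -0.0165 for small HSP, -0.120 to -0.00626 for BAG, 0.00304 to 0.0824 for class C and 0.00377 to 0.0810 for the endoplasmic reticulum group. Without replicate 1 of both sides it was 0.0337 for the HSP70 and HSP110 genes, without replicate 2 of both sides -0.0397 for class C and -0.129 for BAG, and without replicate 3 of both sides -0.0377 for class B. The cause of these shifts was not tested.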
